A study of Saccharomyces cerevisiae with 4 samples.

Results

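Chromosomes I, III and VI are the 3 smallest chromosomes of budding yeast, and their contacts with each other, with the other 13 chromosomes and between their own ends were described here. Their members are restriction fragments of a Hi-C map, taken by position as 3 runs of consecutive rows of the 25 °C map, with the same fragments of the 37 °C map. These are 240 of the 4388 fragments of the 25 °C map, the first 58 rows for chromosome I, 98 for III and 84 for VI. The rule used position only and no contact count.

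In Hi-C, chromatin is fixed and cut, cut ends that lay near each other are ligated, and sequencing counts how often each pair of fragments was joined. All groups were the laboratory strain BY4742 of Saccharomyces cerevisiae, an S288C derivative of mating type alpha, grown in rich medium from a single colony. A culture at 25 °C was divided, and 1 aliquot was fixed at that temperature. The other received prewarmed fresh medium, was held at 37 °C for 15 minutes and was fixed at 37 °C, so heat, medium and the temperature of fixation cannot be told apart. Both were fixed in 3% formaldehyde and cut with HindIII. The labels list 2 replicates for each temperature, but each deposited map combines them, so there was 1 map per temperature, no replicate error and no test. Intervals are exact 95% intervals for counts and cover counting error only.

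In the nucleus of budding yeast, centromeres are held together near the spindle pole body and chromosome arms extend away from them, with their ends at the nuclear envelope. How far a locus can reach from the centromere cluster therefore depends on the length of its arm. Loci on short arms stay within a short reach of the cluster. Chromosome III also carries the mating-type locus and its silent copies near both ends, and gene silencing near chromosome ends is well known in this yeast.

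There were 5920062 contacts in all at 25 °C and 1937970 at 37 °C. Fragments averaged 2.75 kb, and a fragment serves below as the unit of distance. The average was 3.60 kb on chromosome I, 3.10 kb on III and 2.81 kb on VI. On the 13 others it ran from 2.50 kb (XI) to 3.05 kb (V). Equal distances and separations below are thus equal in fragments but not in kb, and what this does to the ratios was not tested. Of the 240 members, 234 were kept and 6 were left out because their total in either map was among the lowest 2%. The median total of the kept members was 2819 contacts at 25 °C and 694 at 37 °C, against 2745 and 728 for the kept fragments of the 13 other chromosomes. Inter-chromosomal pairs with a member held 605926 contacts (11.6% of those between chromosomes) at 25 °C and 183620 (11.7%) at 37 °C.

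Some fragments had unequal coverage in the maps. A fragment is called raised where the ratio of its fitted coverage factors, 37 °C over 25 °C, exceeded 2 times the median ratio, which held for 13.5% of all kept fragments. Among the members 31 of 234 were raised (13.2%), but unevenly: 4 fragments of chromosome I (7.27%), 10 of III (10.4%) and 17 of VI (20.5%). Values without the raised fragments are given beside the results that moved with them.

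The rows did not end where the contacts placed the chromosome borders. By the change of contacts between neighbouring blocks, chromosome I had 63 fragments, III had 102 and VI had 96. The rule thus left out 5 fragments at the right end of I, 4 at the left end of III, and 10 at the left and 2 at the right end of VI. Of the 20 that could be matched between the maps, 19 had a higher mean count with the chromosome they were placed on than with the neighbouring chromosome. They are not counted as members, and the main results on ends are given with the rows and again with the borders. Centromeres were placed at the peak of contact with the other centromeres. The member rows of the left and right arms then numbered 41 and 16 on I, 26 and 71 on III, and 48 and 35 on VI.

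The 3 small chromosomes met each other more often than almost any other chromosomes did. Chromosomes I and VI had 6513 contacts at 25 °C, 2.28 times the number expected from the coverage of their fragments (95% interval 2.22 to 2.33). At 37 °C there were 1701, which gave a ratio of 1.99 (1.90 to 2.09). Chromosomes I and III had 6420 contacts at 25 °C, a ratio of 1.93 (1.89 to 1.98), and 1493 at 37 °C, a ratio of 1.83 (1.74 to 1.93). Chromosomes III and VI had 10272 contacts at 25 °C, a ratio of 1.83 (1.79 to 1.86), and 2988 at 37 °C, a ratio of 1.63 (1.57 to 1.68). I with VI, I with III and III with VI ranked 1, 2 and 3 of the 120 chromosome pairs in both maps. Ratios of at least 1.38 at 25 °C were found for 6 pairs, 5% of the 120, and these were the 3 pairs and each of the small chromosomes with IX.

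Each of the 3 ratios was lower in the 37 °C map. The log2 ratio of 37 °C over 25 °C was -0.19 for I with VI (-0.27 to -0.12) and -0.17 for III with VI (-0.23 to -0.11). It was -0.08 for I with III, with an interval that reached 0.003. I with VI and III with VI passed a limit of -0.1, which 2.5% of all pairs did. Without the raised fragments, I with VI stood at -0.13, III with VI at -0.096 and I with III at -0.07, so that III with VI no longer passed it.

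**Figure D1:**
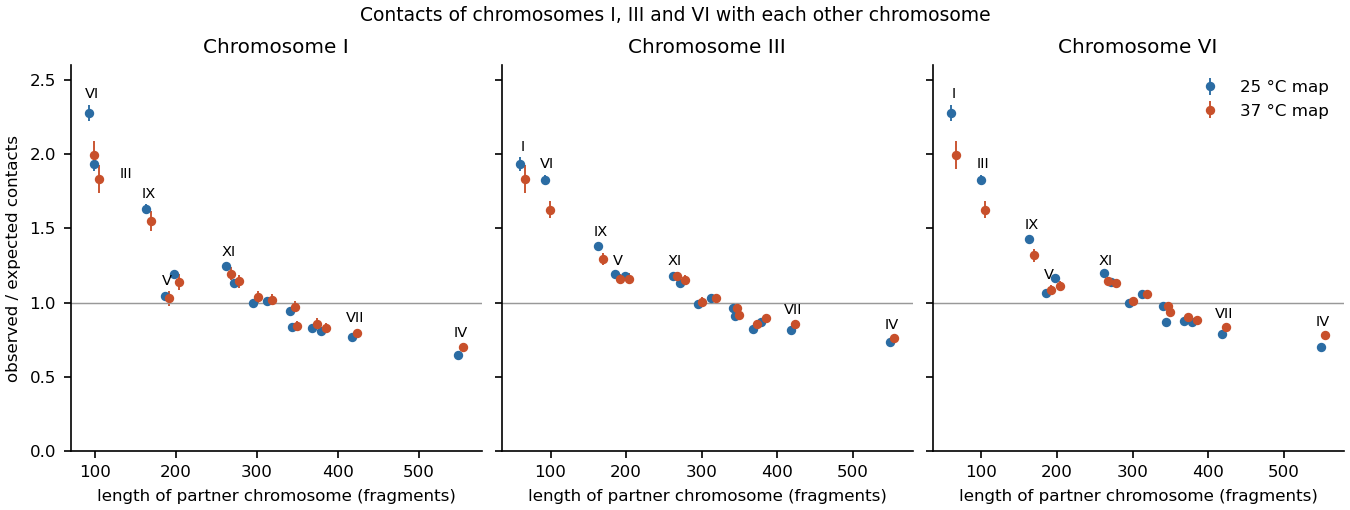
Observed over expected contacts (vertical axis) of chromosomes I, III and VI with each other chromosome, against the length of the partner in fragments (horizontal axis). Points are the 25 °C map (blue) and the 37 °C map (orange), with exact 95% counting intervals. Ratios fell from the small partners to chromosome IV, the longest, at 0.645, 0.737 and 0.701 in the 25 °C map.

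With the 13 other chromosomes, the contact ratio of each small chromosome followed the length of the partner. Across the 13 partners, Spearman's rho between partner length and the 25 °C ratio was -0.96 for chromosome I, -0.99 for III and -0.94 for VI, given as a description because the partners share the same fragments of the small chromosome. Chromosome IX, the shortest of the 13, was highest for all 3. Its ratio with I was 1.63 (1.60 to 1.67) at 25 °C and 1.55 at 37 °C. With III it was 1.38 and 1.29, and with VI 1.43 and 1.32. The next partner was XI for chromosome I (1.248 and 1.20) and for VI (1.20 and 1.14). For III it was V at 25 °C (1.19, and 1.16 at 37 °C) and XI at 37 °C (1.18).

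The long chromosomes were at the other end of the order. Chromosome IV had ratios of 0.645 with I (0.633 to 0.658), 0.737 with III and 0.701 with VI at 25 °C, and 0.703, 0.758 and 0.783 at 37 °C. Chromosome VII was second lowest for all 3, at 0.766, 0.817 and 0.786 at 25 °C. The spread between partners was narrower at 37 °C at both ends of the order. IV with VI (log2 0.16), I with IV (0.12) and VI with XIII (0.11) were the 3 of 120 pairs (2.5%) at or above a log2 ratio of 0.1. VI with IX was the remaining pair at or below -0.1 (log2 -0.11, -0.17 to -0.06). Without the raised fragments, IV with VI stood at 0.06, I with IV at 0.09, VI with XIII at 0.10 and VI with IX at -0.05.

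Much of this order was shared by fragments of any chromosome that lie equally close to their centromeres. To compare like with like, the expected contacts were multiplied by the ratio seen among the 13 other chromosomes for the same pair of distances from the centromere. The ratio among the 3 small chromosomes was then 1.24 at 25 °C (1.23 to 1.26) and 1.19 at 37 °C (1.16 to 1.22). By pair, the distance-matched ratios were 1.20 and 1.22 for I with III, 1.30 and 1.21 for I with VI, and 1.23 and 1.16 for III with VI. These ranked 7, 2 and 5 of the 120 pairs at 25 °C, where I with IX was highest, at 1.41.

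All 3 pairs exceeded a matched ratio of 1.1, which 10.8% of all pairs did. Of the 39 pairs of a small with another chromosome, 9 did, and these were each of I, III and VI with IX, X and XI. Of the 78 pairs among the 13 others, 1 did, but these pairs supplied the reference, so their matched ratios lie around 1 by construction. The tie to partner length was looser for chromosomes I and VI after matching, with Spearman's rho at 25 °C of -0.67 for I, -0.93 for III and -0.72 for VI. Chromosome V, with the next fewest fragments after IX, had matched ratios below 1 with I (0.889) and VI (0.931), but 1.07 with III. VIII, with 201 fragments against 189 for V but a shorter span of genes, had 1.06, 1.09 and 1.06 with I, III and VI. IV had 0.802 with I, 0.846 with III and 0.833 with VI.

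**Figure D2:**
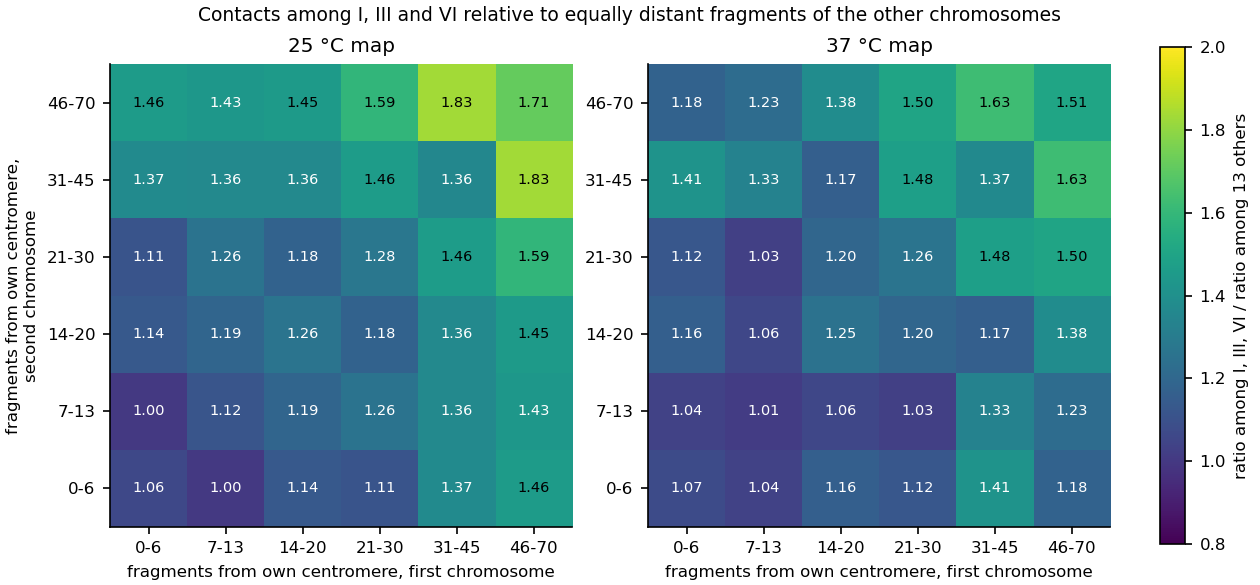
Ratio of contacts among I, III and VI divided by the ratio among the 13 other chromosomes, for fragments at the same distances from their own centromeres, in the 25 °C map (left) and the 37 °C map (right). Both axes are classes of distance in fragments, and each cell shows its value, which rose from 1.06 between fragments at the centromeres (0-6 with 0-6) to 1.83 in the class 31-45 with 46-70 at 25 °C.

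The excess over equally distant fragments lay away from the centromeres. Fragments 0 to 6 from the centromere met each other at a ratio of 6.05 at 25 °C among the small chromosomes and 5.71 among the 13 others, and at 5.39 and 5.03 at 37 °C. Between fragments 31 to 45 and 46 to 70 from the centromere the ratio was 2.11 (1.98 to 2.25) among the small chromosomes and 1.15 among the others at 25 °C. At 37 °C it was 1.81 (1.58 to 2.06) and 1.11. Those outer classes hold the ends of the left arm of I, the right arm of III and the left arm of VI, and the outermost fragments of the right arm of VI.

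Sorting the contacts by end regions gave the same picture. Between the 11 fragments at the ends of the small chromosomes, the distance-matched ratio was 2.14 at 25 °C and 1.73 at 37 °C. Between ends and inner fragments it was 1.32 and 1.19. Between inner fragments it was 1.13 (1.11 to 1.15) and 1.14 (1.103 to 1.18). The log2 ratio between the maps was -0.30 for end with end, -0.15 for end with inner and 0.01 for inner with inner (-0.04 to 0.06), so the lower matched ratio at 37 °C was measured in contacts that involved an end. The reference here is all fragments at equal distances, not ends alone. High matched ratios between ends were also found for other short arms, as given below.

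The short arms gave the highest ratios between arms. The right arm of I, with 16 kept fragments, and the left arm of III, with 25, met at 3.21 times expectation at 25 °C (2.99 to 3.43, 822 contacts). In the 37 °C map they met at 2.35 times, with 174 contacts (2.01 to 2.72). Their log2 ratio of -0.45 was the lowest of the 12 pairs of arms. The right arm of I also had high ratios with the left arm (2.68 and 2.29) and the right arm (2.64 and 2.25) of VI. The lowest of the 12 at 25 °C joined the long right arm of III, with 70 kept fragments, to the left arm of VI, at 1.61 (1.55 to 1.66), to the left arm of I, also at 1.61, and to the right arm of I, at 1.64. After distance matching the 12 arm pairs lay between 1.097 (right arms of I and III) and 1.49 (right arm of I with the left arm of VI) at 25 °C.

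Toward the centromeres of the 13 other chromosomes, the small chromosomes had high ratios as wholes. All kept members met the centromere regions, which reach 7 fragments to each side, at 2.13 times expectation at 25 °C (2.12 to 2.15). The 37 °C value was 1.99 (1.97 to 2.02), and the 13 others met each other's centromere regions at 0.926 and 0.935. Chromosome I was highest, at 2.62 and 2.51, then VI at 2.29 and 2.10, and III, with its long right arm, was lowest at 1.75 and 1.64. With arms at least 100 fragments from their centromere the order turned. Chromosome I had 0.454 and 0.548, VI 0.520 and 0.641, and III 0.637 and 0.702.

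At equal distance from their own centromere, the gap between fragments of the small and of the other chromosomes was far narrower. Fragments 14 to 20 away met the 13 centromere regions at 1.83 on the small chromosomes and 1.84 on the others at 25 °C, and at 1.60 and 1.66 at 37 °C. At 0 to 6 fragments the values were 5.38 and 5.51 at 25 °C, and at 7 to 13 fragments 2.59 (2.55 to 2.63) and 2.96, so that the small chromosomes were the lower in both. In the outer class of 46 to 70 fragments they were 0.590 (0.566 to 0.614) and 0.528, where the small chromosomes were the higher. Toward distal arms, fragments 0 to 6 from the centromere had 0.274 on the small and 0.263 on the other chromosomes.

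**Figure D3:**
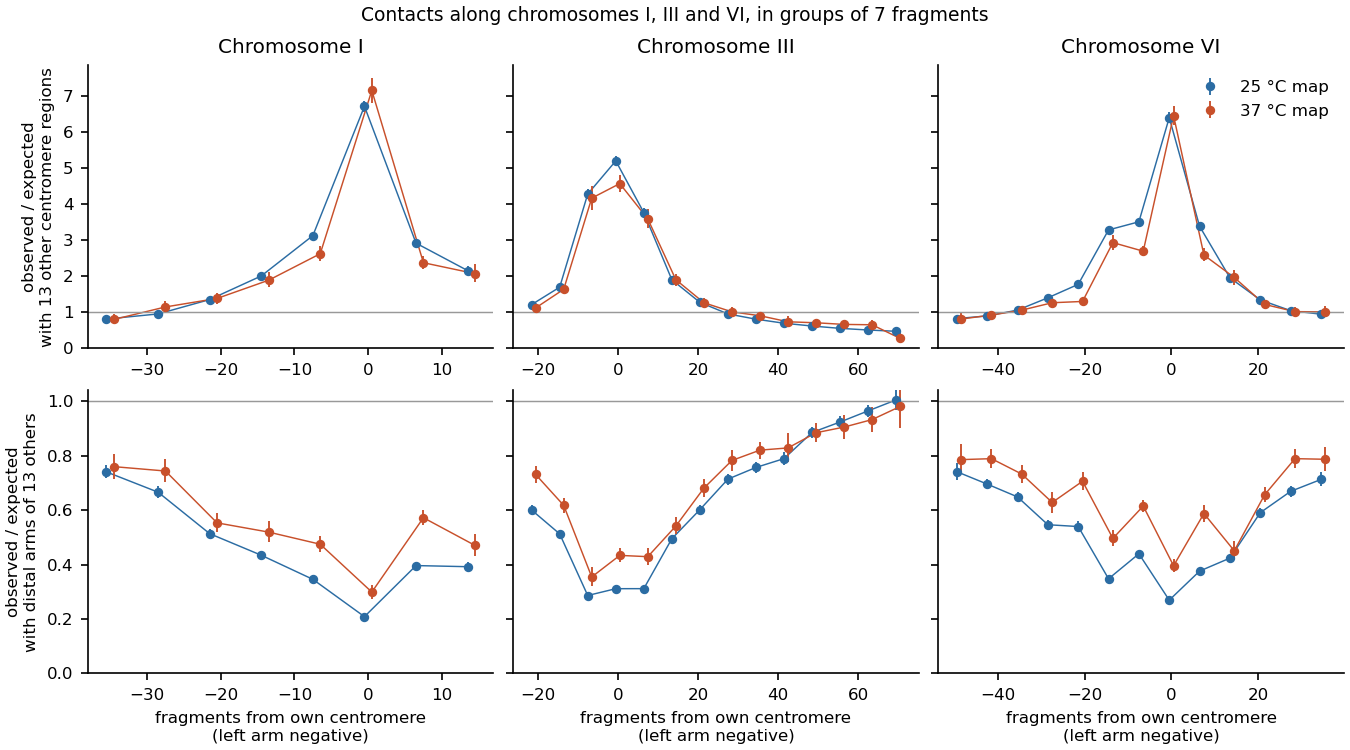
Observed over expected contacts of successive groups of 7 fragments along I, III and VI with the centromere regions (top) and the distal arms (bottom) of the 13 other chromosomes, against the distance from the own centromere in fragments. Blue is the 25 °C map, orange the 37 °C map, and bars are exact 95% counting intervals. The peak at the centromere was 6.72 on I, 5.20 on III and 6.40 on VI in the 25 °C map.

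Along each chromosome the ratio with other centromeres formed a peak at its own centromere that fell off within about 20 fragments. On chromosome I the 7 fragments at the centromere stood at 6.72 (7116 contacts), and the left end at 0.813. On III the values fell from 5.20 at the centromere to 0.472 at the right end, the lowest of any group at 25 °C. On VI they fell from 6.40 to 0.826 at the left end and 0.947 at the right end. No group at the right end of chromosome I came near 1, since its outermost 6 member fragments, 11 to 16 from the centromere, still stood at 2.16 at 25 °C and 2.07 at 37 °C.

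The peaks of I and VI differed between the maps more in their flanks than at their tops. The central 7 fragments of I stood at 7.16 at 37 °C (log2 0.09, 0.01 to 0.17) and those of VI at 6.46 (log2 0.01, -0.06 to 0.08). The groups 4 to 10 fragments away were lower at 37 °C, with log2 ratios of -0.25 (left) and -0.30 (right) on I, and -0.38 (left) and -0.39 (right) on VI. On chromosome III the centre itself was lower, at 4.57 (log2 -0.19, -0.27 to -0.11), and the flanks stood at -0.04 and -0.07 with intervals that included 0. The 25 °C map is deeper and weighed more in the placing of the centromeres. Either map alone placed the centromeres of I, III and VI at the same fragments. Some partner centromeres moved with the 37 °C map alone, most on VIII (-4 fragments) and IX (4 fragments).

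The difference of chromosome VI moved with its raised fragments, 6 of which were among the 14 fragments 7 to 13 away from the centromere. Over all of VI, the log2 ratio with other centromere regions was -0.12 (-0.16 to -0.09), and 0.001 (-0.04 to 0.05) without the raised fragments. It was -0.06 and -0.06 for chromosome I, and -0.09 (-0.13 to -0.05) and -0.07 (-0.12 to -0.03) for III. Over all 3 it was -0.10, and -0.05 without the raised fragments. In the class 7 to 13 away, VI stood at -0.28 with the raised fragments and at -0.20 (-0.34 to -0.07) without them. Without the raised fragments, the 13 others stood at 0.007 over all their fragments, but were also lower near their centromeres. Their log2 ratios at 0 to 6, 7 to 13 and 14 to 20 fragments were -0.127, -0.098 and -0.105. Those of the small chromosomes were -0.062, -0.133 and -0.191.

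Toward distal arms the ratios were nearer to 1 in the 37 °C map. Over all members they were 0.555 at 25 °C and 0.648 at 37 °C (log2 0.22, 0.21 to 0.24), and 0.533 and 0.588 without the raised fragments (log2 0.14). The difference was greatest near the centromere, where fragments 0 to 6 away had a log2 ratio of 0.57 (0.53 to 0.62), and it lay at -0.03 (-0.07 to 0.01) for fragments 46 to 70 away. The same classes of the 13 other chromosomes stood at 0.65 and -0.001. The outer part of the right arm of III was already near expectation with distal arms at 25 °C, at 0.965 for fragments 60 to 66 away.

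Genes give names to these positions, although only approximately. All 41 landmark genes chosen by name were found in the RefSeq gene table of build R64, and each was placed by interpolation between the chromosome borders and the centromere. A value covers the fragments up to 5 to each side, so neighbouring genes share it, and the coordinates below are those of the genes. PHO11, HMLALPHA2, COS4, AGP3, DAK2 and IRC7 were placed on fragments that are not members, and they enter the medians below. Neighbourhoods near an end, such as that of HMLALPHA1, also cover such fragments. The 11 genes placed within 13 fragments of a centromere had a median ratio with the 13 other centromere regions of 4.01 at 25 °C and 3.58 at 37 °C. The 15 genes at 14 to 29 fragments had medians of 1.47 and 1.40, and the 15 genes at 30 or more had 0.903 and 0.921.

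Near the centromere of chromosome I, EFB1, which encodes a translation elongation factor subunit, had the highest value of the 41 genes. It lies on chromosome I from 142174 to 143160, 2 fragments from the centromere, and stood at 5.63 at 25 °C and 5.66 at 37 °C. SSA1 beside it, an Hsp70 chaperone (chromosome I, 139503 to 141431), stood at 5.41 and 5.09. On chromosome III, CIT2, the peroxisomal citrate synthase (120946 to 122328), stood at 4.86 and 4.46. The neighbourhood of LEU2 (91324 to 92418), a leucine synthesis gene that is deleted in BY4742, stood at 4.72 and 4.57.

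On chromosome VI the neighbourhoods with the lowest log2 ratios lay 11 to 17 fragments left of the centromere. MDJ1, a mitochondrial partner of Hsp70 (104701 to 106236), stood at 2.78 at 25 °C (4249 contacts) and 2.06 at 37 °C (885 contacts), a log2 ratio of -0.43 (-0.54 to -0.33). SMC1, a cohesin subunit (119429 to 123106), stood at 3.32 and 2.66 (log2 -0.32), HXT10, a hexose transporter, at 3.14 and 2.56 (log2 -0.29), and HSP12, a small heat shock protein, at 2.98 and 2.46 (log2 -0.28). These overlap, and 5 fragments in the neighbourhood of SMC1, 3 in that of HXT10 and 2 in those of MDJ1 and HSP12 were raised. Further out, ACT1, the actin gene, stood at 0.999 and 1.01, and TUB2, the beta-tubulin gene, at 1.01 and 1.00.

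The mating-type loci of chromosome III show its arrangement. HMLALPHA1, at the silent locus of the left end (13282 to 13809), met the ends of the 13 other chromosomes at 2.39 times expectation at 25 °C and 2.21 times at 37 °C. HMRA1, at the silent locus of the right end (293835 to 294321), met them at 2.29 and 2.31. MATALPHA1, at the expressed locus in the right arm (200442 to 200969), stood at 1.04 in both maps. With the other centromere regions, HMLALPHA1 stood at 1.03 and 1.07, MATALPHA1 at 0.903 and 1.06 (log2 0.23, 0.07 to 0.38) and HMRA1 at 0.514 and 0.616 (log2 0.26, 0.01 to 0.50). The silent locus on the short left arm thus had a higher ratio with centromeres in both maps than that on the long right arm.

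The ends of the 3 chromosomes met each other often. Over the 12 pairs of ends on different chromosomes there were 1984 contacts at 25 °C and 506 at 37 °C, ratios of 2.67 (2.56 to 2.79) and 2.13 (1.95 to 2.33), with a log2 ratio of -0.33 (-0.47 to -0.19). With the borders seen in the maps they stood at 3.62 and 3.18, a log2 ratio of -0.19. At least 10 contacts were expected in each map for 10 of the 12 pairs, and all 10 had a 25 °C ratio of at least 2, against 42.3% of the 300 end pairs of the genome that met this minimum. A log2 ratio of -0.25 or less was found for 5 of the 10 and for 40% of the 300, and 0.25 or more for 0 of the 10 and for 20% of the 300. With the borders, 6 of the 12 pairs had enough expected contacts. All 6 had a 25 °C ratio of at least 2, against 46% of 263 end pairs, but 1 of the 6 had a log2 ratio of -0.25 or less, against 40.7%, and 3 of the 6 were lower at 37 °C at all.

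**Figure D4:**
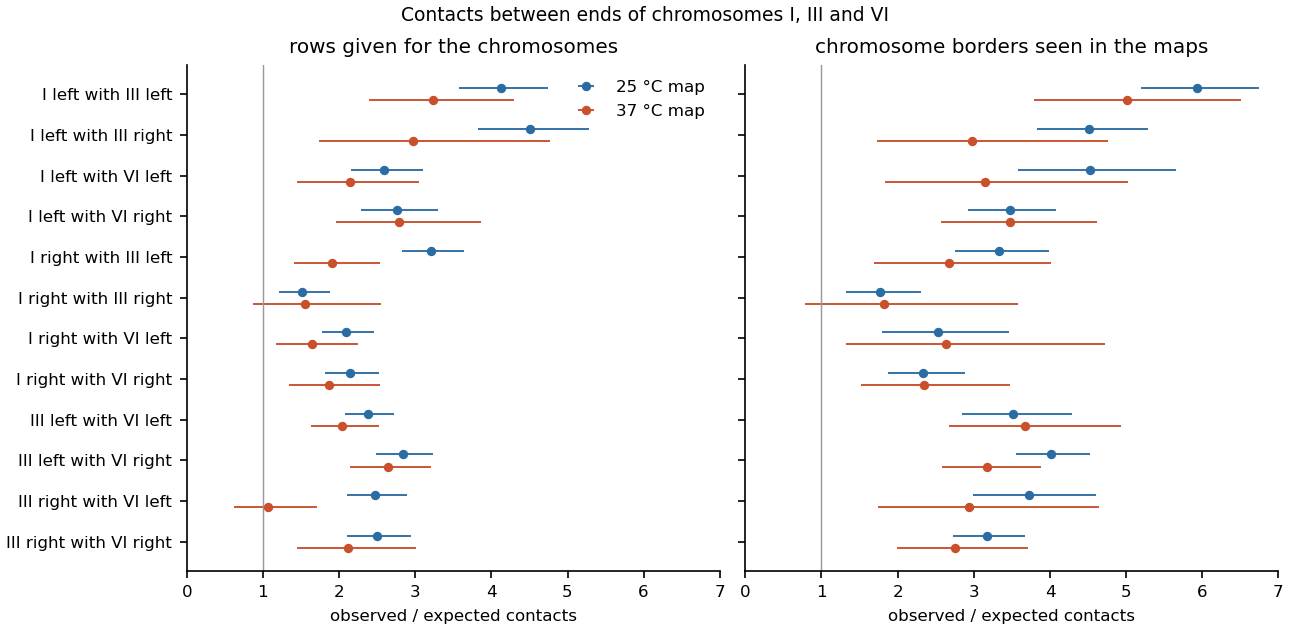
Observed over expected contacts (horizontal axis) for the 12 pairs of ends of I, III and VI, with exact 95% counting intervals, in the 25 °C map (blue) and the 37 °C map (orange). The left panel uses the rows that define the chromosomes and the right panel the borders seen in the maps, where the left ends of I and III reached 5.93 at 25 °C.

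The left end of chromosome I had the highest of these ratios. It met the left end of III at 4.13 at 25 °C (3.58 to 4.74, 202 contacts) and 3.24 at 37 °C (2.39 to 4.30, 48 contacts). With the borders, this pair stood at 5.93 and 5.02 and was the highest of the 263 end pairs with enough expected contacts. With the right end of III the left end of I stood at 4.51 at 25 °C (154 contacts), where the 37 °C map had only 17 contacts against 5.71 expected.

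Differences between the maps were uneven over the 12 pairs. The right end of I with the left end of III stood at 3.21 and 1.91 (log2 -0.75, -1.22 to -0.30), and with the borders at 3.33 and 2.67 (log2 -0.32, -1.03 to 0.34). Between the right end of III and the left end of VI the ratio was 2.48 at 25 °C, with 158 contacts, and 1.07 at 37 °C, with 17 contacts (log2 -1.21, -2.03 to -0.48), and with the borders 3.73 and 2.94 (log2 -0.34, -1.16 to 0.40). These were the 2 of the 12 pairs whose interval lay below 0 with the rows, and with the borders the intervals of both included 0. The lowest ratio at 25 °C joined the right ends of I and III, arms of 16 and 71 fragments, at 1.52 (1.21 to 1.89). That pair was not among the 10 with enough expected contacts, whose lowest 25 °C ratio was 2.10.

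High ratios were also found between ends of other short arms. Among the 13 other chromosomes, 4 such pairs had arms of at most 60 fragments and enough expected contacts. Their median was 2.86 at 25 °C and 2.29 at 37 °C. The 10 pairs among I, III and VI had medians of 2.55 and 2.08, and with the borders 6 pairs had medians of 3.49 and 3.33, so their order against the other short arms depended on where the ends were set. Over the 182 end pairs among the 13 others the medians were 1.97 and 1.65, and over the 108 pairs that join a small chromosome to another they were 1.35 and 1.28. After distance matching that order turned at 25 °C, with medians of 1.63 and 1.78. The matched medians of the 4 pairs of other short arms were 2.603 at 25 °C and 2.16 at 37 °C. Those of the 10 pairs among I, III and VI were lower, at 2.043 and 1.733. With the borders the 6 pairs had higher matched medians, at 2.888 and 2.685, so the matched order also depended on where the ends were set.

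Each of the 6 ends met the ends of the 13 others above expectation, to different degrees. The right end of III was highest, at 2.59 at 25 °C (2979 contacts) and 2.72 at 37 °C, followed by the left end of I, at 2.33 and 2.28. The left end of III stood at 1.81 and 1.77, the left end of VI at 1.61 and 1.42, and the right end of VI at 1.36 and 1.32. The right end of I was lowest, at 1.096 (1.04 to 1.15) and 1.08 (0.97 to 1.19). That end begins 6 fragments from its centromere, and it met the 13 centromere regions at 2.50 and 2.21, against 0.485 and 0.483 for the right end of III. With the borders, the left end of III stood at 2.33 with the other ends at 25 °C, the left end of VI at 2.20, the right end of VI at 1.53 and the right end of I at 1.23.

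Single ends of other chromosomes were compared where at least 10 contacts were expected in each map, which 7 to 25 of the 26 reached. The right end of IX was then first for 4 of the 6 ends of the small chromosomes. It met the right end of I at 5.24 at 25 °C (4.64 to 5.91, 270 contacts) and 4.71 at 37 °C (78 contacts), arms whose lengths differ by 8 fragments. It met the right end of III at 3.76 and 3.07, the left end of VI at 3.22 and 3.42 and the right end of VI at 2.73 and 2.28. The left end of V was first for the left end of III, at 3.97 and 3.71, and second for 2 others. For the left end of I the right end of XI was first, at 4.64 and 5.16, with arms that differ by 55 fragments. With the right end of IX, left out here for 9.78 expected contacts at 37 °C, the left end of I stood at 6.29 and 4.70. The right end of XII, beyond the rDNA, was last for all 6, with ratios from 0.339 (right end of I) to 1.08 (right end of III) at 25 °C. These ranks are for the rows and without distance matching. After matching, the right end of XI stood above that of IX for the right end of I (4.00 and 2.90 at 25 °C) and the right end of VI (2.70 and 1.86), and above the left end of V for the left end of III (3.86 and 3.52).

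Both ends of the same chromosome met more often than fragments equally far apart on other chromosomes. For chromosome I, 285 contacts at 25 °C were 4.46 times those expected from the same separations of 37 to 55 fragments elsewhere (3.95 to 5.01), and 63 contacts at 37 °C were 2.14 times (1.64 to 2.73). For III, 401 contacts were 4.18 times the expectation (3.78 to 4.61) and 118 contacts were 2.81 times (2.33 to 3.37), at 77 to 97 fragments. For VI, 279 contacts were 2.26 times (2.00 to 2.54) and 155 contacts were 1.54 times (1.31 to 1.80), at 63 to 83 fragments. A ratio of at least 2 at 25 °C was found for all 3, and for 64.3% of the 14 chromosomes measured, which leave out IV, where no other chromosome gives such separations, and XII because of its rDNA. End regions of 5 in place of 11 fragments gave higher 25 °C ratios, at 6.78 for I, 9.27 for III and 5.62 for VI. The highest of the other chromosomes was X, at 3.97 and 3.99, with 95 and 23 contacts.

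**Figure D5:**
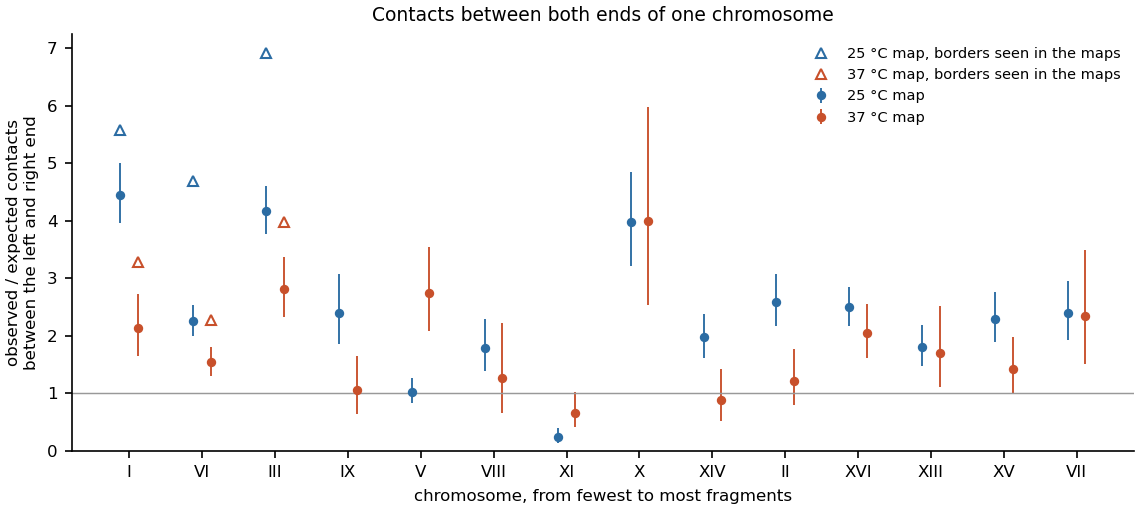
Observed over expected contacts between the left and the right end region of the same chromosome (vertical axis) for 14 chromosomes, from fewest to most fragments (horizontal axis). Circles with exact 95% counting intervals use the rows for I, III and VI, and open triangles use the borders seen in the maps, where the ratios of I, III and VI at 25 °C were 5.59, 6.91 and 4.70.

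The ratio was lower at 37 °C for all 3, but the size and even the presence of that difference depended on the scale. The log2 ratios were -1.06 for I (-1.48 to -0.66), -0.57 for III (-0.88 to -0.27) and -0.55 for VI (-0.85 to -0.27). With the borders they were -0.76, -0.80 and -1.04. Without the raised fragments VI stood at -0.33, with an interval that reached 0.08, and without fragment factors in the expectation at 0.05. Without fragment factors, both ends of I stood at 2.84 at 25 °C and 0.969 at 37 °C, so no excess was left at 37 °C. Set against the coverage of the same fragments in inter-chromosomal pairs, in place of equal separations, the ratio was 7.16 at 25 °C and 7.37 at 37 °C for I, 6.05 and 7.04 for III, and 3.49 and 4.32 for VI, so on that scale none of the 3 was lower at 37 °C. With the borders, the same scale gave 8.96 and 11.1 for I, 9.98 and 9.74 for III, and 6.88 and 5.88 for VI.

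Counts within chromosomes were not complete in the deposited maps. At separations of 1 to 4 fragments on I, III and VI, 95.3% of fragment pairs were at 0 at 25 °C, none was at 1, and the median of the others was 37. Between I, III and VI, 34.9% of pairs were at 0 and 30.8% at 1. The step that left this gap is not given in the sources used here, and the gap was narrower at 37 °C, where 16.9% of pairs at separations of 40 to 59 were at 1, against 1.44% at 25 °C. Its part in the ratios between the ends of a chromosome was not tested.

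Counted by filled pairs in place of contacts, the ends were also above equal separations at 25 °C on all 3 chromosomes. The intervals below treat pairs as independent although pairs share fragments, so they are a description and not a test. The part of the missing counts in these shares was not tested. Of the 99 pairs of end fragments of I, 62 held a contact at 25 °C (62.6%, exact Clopper-Pearson 52.3% to 72.1%), against 22.5% at the same separations elsewhere. At 37 °C 39 did (39.4%, 29.7% to 49.7%), against 37.1%, which lies inside that interval. For III the shares were 69.4% (60.4% to 77.5%) against 32.0% at 25 °C, and 53.7% (44.4% to 62.8%) against 32.5% at 37 °C. For VI they were 44.6% (35.6% to 53.9%) against 30.4%, and 50.4% (41.2% to 59.6%) against 35.0%. With the borders, VI had 68.2% (55.6% to 79.1%) against 31.4% at 25 °C and 57.6% (44.8% to 69.7%) against 33.1% at 37 °C, so its share was higher at 37 °C with the rows and lower with the borders.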

How the data were processed

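Hi-C contact counts were deposited by the authors as 1 matrix of whole numbers per temperature, with replicates combined and without fragment names. The submitters' processing notes name Bowtie 1.1.0 and build R64, and the filtering that followed is not given in the sources used here. From the deposited counts, 4382 fragments were matched between the maps by order and totals. Chromosome borders and centromeres were found from the contacts, and gene positions were interpolated from the R64 gene table, with a median distance of 12.9 kb between the centromeres of map and table. Expected inter-chromosomal contacts were products of fragment factors from iterative proportional fitting. Expected contacts between ends of the same chromosome used the mean at equal separation on other chromosomes. Scripts used Python 3.11.15, numpy 2.4.6 and scipy 1.17.1. The fit was run on inter-chromosomal counts simulated from its own factors with counting error only. That run cannot show whether the assumptions of the fit hold in these maps, and it did not cover contacts within chromosomes. Members, gene lists and regions were chosen with earlier results of these data known. Regions named are the 3 chromosomes, their ends and centromeres, all pairs among them, the 2 highest and 2 lowest partners, and a list of landmark genes, with examples picked for the text after their values were seen. Alternatives changed the filter, the raised fragments, very high counts, the expectation, the reference and the region sizes.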

Additional observations from a re-analysis of the deposited data

How the results depend on the processing

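No paired analysis was possible because each deposited map combines the 2 replicates of its temperature, and for the same reason no replicate could be left out. Below, a value is the ratio at 25 °C unless it is called a log2 ratio of 37 °C over 25 °C. Keeping all fragments, leaving out the lowest 5%, capping very high counts and leaving XII out of the reference moved no result beyond its counting interval. Fragment totals without iteration gave 1.72 for I with III, 2.02 for I with VI and 1.64 for III with VI, 1.11 for the distance-matched ratio, 2.39 for ends with each other, 2.02 with centromere regions and 0.53 with distal arms. Both ends of I, III and VI then stood at 3.88, 3.72 and 2. Without the raised fragments III with VI stood at 1.87 (log2 -0.1), both ends of VI at 2.54, ends with each other at 2.8 and distal arms at 0.533 (log2 0.14), and the log2 ratio with centromere regions was -0.05. Regions of 5 fragments gave 6.78 for both ends of I, 9.27 (log2 -1.04) for III and 5.62 (log2 -1.23) for VI, 3.6 (log2 -0.14) for ends with each other and 2.15 with centromere regions. Without fragment factors, both ends of I stood at 2.84 (log2 -1.55) and of III at 3.67, and the log2 ratio of VI turned to 0.05; the cause was not tested. Reference pairs across centromeres gave 3.54 for both ends of I, distance classes of 5 fragments gave 1.26 for the matched ratio, and distal arms from 150 fragments gave 0.501 (log2 0.3).

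The borders seen in the maps and the removal of the end regions were added after the data were seen. The borders gave 5.59, 6.91 and 4.7 for both ends of I, III and VI, with a log2 ratio of -1.04 for VI, 1.27 for the matched ratio, 3.62 for ends with each other, 2.09 with centromere regions and 0.561 with distal arms. Without the end regions I with VI stood at 2.49, III with VI at 1.92, centromere regions at 2.47 and distal arms at 0.518 (log2 0.24). The matched ratio was then 1.14 and its log2 ratio turned from -0.06 to 0.01, where contacts between ends alone gave -0.30. With 1 map per temperature, differences between maps include any difference between preparations. The 37 °C map limits pairs of ends, where fewer than 10 contacts were often expected.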
